A study of Mus musculus with 10 samples.

Results

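Synaptic vesicles carry a small set of abundant membrane proteins that span the vesicle several times, and the transcripts of 7 of them were followed in the cerebral cortex of 5XFAD mice. The genes were Sv2a, Sv2b and Sv2c (the SV2 glycoproteins), Syngr1 and Syngr3 (synaptogyrins), and Syp and Synpr (synaptophysin and synaptoporin). They were taken from the deposited gene counts as the rows whose Ensembl identifier carries one of these symbols in the mouse GENCODE annotation, and all 7 were found among 53700 counted genes, each on 1 row. The family was picked with the comparison between the genotypes already known, so the differences between the genotypes given here describe these genes and are not independent evidence that they differ.

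SV2 proteins are heavily glycosylated and resemble sugar transporters in sequence. SV2A is found at most synapses and is the brain binding site of the antiseizure drug levetiracetam, SV2B is mainly found at glutamatergic terminals, and SV2C has a narrower distribution that is richest in the basal ganglia and brain stem. All SV2 proteins take part in regulated release and can serve as entry receptors for botulinum neurotoxin A. Synaptophysin, the classical marker of synaptic vesicles, binds the vesicle SNARE synaptobrevin and helps to retrieve it after release. Synaptoporin is its close relative, and the synaptogyrins belong to the same family of tetraspan vesicle proteins.

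The question of the study was how removal of Idol (Mylip), an E3 ubiquitin ligase that sends the LDL receptor to degradation, from neurons alters an amyloid model. Cortices came from female mice aged 4 months. All of them carried the 5XFAD transgenes, human APP and presenilin with familial Alzheimer's disease mutations driven by the neuronal Thy1 promoter. The 5 libraries named 5XFAD;Neu cKO are labelled Camk2a-cre cKO for Idol, a cross of floxed Idol with a Cre that acts mainly in excitatory neurons of the forebrain, and the 5 named 5XFAD are labelled Camk2a-cre WT and were littermate controls. Idol outside Camk2a-expressing cells is left in place by this design, and there were no libraries from mice without the 5XFAD transgenes. Libraries were made by QuantSeq, which counts about 1 fragment per transcript next to the poly(A) tail, and a level is given here as CPM, the count scaled to library size with TMM factors.

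The members lie on different chromosomes of the mouse genome (GRCm39): Sv2a on chr3:96088467-96106005, Sv2b on chr7:74761975-74959131, Sv2c on chr13:96091102-96269085, Syngr1 on chr15:79975353-80005062, Syngr3 on chr17:24904063-24909172, Syp on chrX:7504710-7519499 and Synpr on chr14:8853423-9184986. Promoter sequence was matched for 6 of the 7 from RefSeq (GRCm38.p6), as 250 bases before and 50 bases from the annotated start. The promoters of the 3 genes with the largest differences between the genotypes, and of Syp for comparison, are shown 5′ to 3′ on the gene's own strand, with each GC box (GGGCGG on either strand, so GGGCGG or CCGCCC) in capitals. They were Sv2a at chr3:96180977-96181276 (plus strand), Sv2c at chr13:96132528-96132827 (minus strand), Syngr1 at chr15:80091084-80091383 (plus strand) and Syp at chrX:7638330-7638629 (plus strand).
Sv2a: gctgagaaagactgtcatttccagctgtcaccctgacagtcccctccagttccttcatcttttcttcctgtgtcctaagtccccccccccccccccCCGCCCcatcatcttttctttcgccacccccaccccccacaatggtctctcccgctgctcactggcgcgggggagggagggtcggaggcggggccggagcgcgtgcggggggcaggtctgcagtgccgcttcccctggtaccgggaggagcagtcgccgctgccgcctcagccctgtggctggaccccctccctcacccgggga
Sv2c: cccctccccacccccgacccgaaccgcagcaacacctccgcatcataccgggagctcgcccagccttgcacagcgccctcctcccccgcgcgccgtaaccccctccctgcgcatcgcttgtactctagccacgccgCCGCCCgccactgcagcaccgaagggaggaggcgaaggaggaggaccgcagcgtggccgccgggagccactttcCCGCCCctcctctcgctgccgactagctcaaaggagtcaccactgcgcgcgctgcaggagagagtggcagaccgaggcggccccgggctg
Syngr1: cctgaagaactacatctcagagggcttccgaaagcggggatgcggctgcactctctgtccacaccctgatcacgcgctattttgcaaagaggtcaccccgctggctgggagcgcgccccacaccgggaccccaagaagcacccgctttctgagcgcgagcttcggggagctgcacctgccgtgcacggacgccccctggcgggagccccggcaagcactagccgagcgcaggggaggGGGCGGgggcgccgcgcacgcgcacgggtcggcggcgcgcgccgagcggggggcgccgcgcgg
Syp: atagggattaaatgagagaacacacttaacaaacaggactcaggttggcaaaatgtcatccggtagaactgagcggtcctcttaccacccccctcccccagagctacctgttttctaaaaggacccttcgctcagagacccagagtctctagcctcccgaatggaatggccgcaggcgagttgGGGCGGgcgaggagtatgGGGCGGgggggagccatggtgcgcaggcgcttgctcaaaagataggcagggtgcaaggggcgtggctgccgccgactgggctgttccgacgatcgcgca

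These 4 promoters are GC-rich. Syngr1 held 38 CpG dinucleotides in 300 bases, Sv2c 32, Syp 18 and Sv2a 17, against a median of 7 over the 32851 promoters of the same length. GC content was 72.3%, 71.7%, 59.0% and 68.0% in the same order, against a median of 52.7%. Sv2c and Syp each held 2 GC boxes and Sv2a and Syngr1 1 each, and 35.7% of all promoters held at least 1. None of these 4 windows held the cyclic AMP response element TGACGTCA (in 1.79% of all promoters), TATAAA (13.6%) or CCAAT (37.4%) on either strand. These matches describe letters only.

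The libraries held 4320504 to 7466192 reads on genes, and depth did not separate the genotypes (exact two-sided permutation test, p = 0.405). On the principal components of log2 CPM, 5XFAD replicate 2 stood apart on the leading component (-30.9, the other libraries -10.7 to 12.2) and 5XFAD replicate 5 on the next (-23.8, the others -8.94 to 12.6), so values for the members are also given without them. The leading component also parted the labels, with -30.9 to 1.15 in the libraries labelled 5XFAD and 5.01 to 12.2 in those labelled 5XFAD;Neu cKO. Mylip itself was counted 50, 53, 108, 50 and 45 times in the libraries labelled 5XFAD and 77, 78, 148, 112 and 50 times in those labelled 5XFAD;Neu cKO, or 11.2 ± 2.27 and 14.8 ± 4.90 CPM (mean ± SD, n = 5 each). It was not lower in the cKO label (exact two-sided permutation test, p = 0.254), and the position of the floxed exons relative to these 3′ counts is not given in the sources used here, so this gene does not check the labels. The groups are therefore called by their labels.

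All 7 members had a lower mean in the 5XFAD;Neu cKO-labelled libraries, the median of their log2 fold changes being -0.21, while 50.1% of the 19268 genes tested had a log2 fold change below 0 and the median over all genes was -0.00056. The difference was largest for Sv2c, which was 40.1% lower, followed by Syngr1 (20.8% lower) and Sv2a (17.1% lower). Syp and Synpr, the synaptophysin pair, differed by 5.37% and 0.278% of the 5XFAD mean. With p-values of the quasi-likelihood test in edgeR, adjusted over all genes (Benjamini-Hochberg), 1 member, Sv2c, was past an adjusted p of 0.05, where 0.218% of all genes were (0.161% in the lower direction). By DESeq2, which the study's methods name, 3 members (Sv2c, Syngr1 and Sv2a) were, against 1.25% of the 5820 genes to which it gave an adjusted p (0.876% in the lower direction). The groups did not overlap for 2 members, Sv2c and Syngr1, as for 0.721% of all genes in that direction. Since the family was picked on this contrast, nothing is read from these counts.

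**Figure D1:**
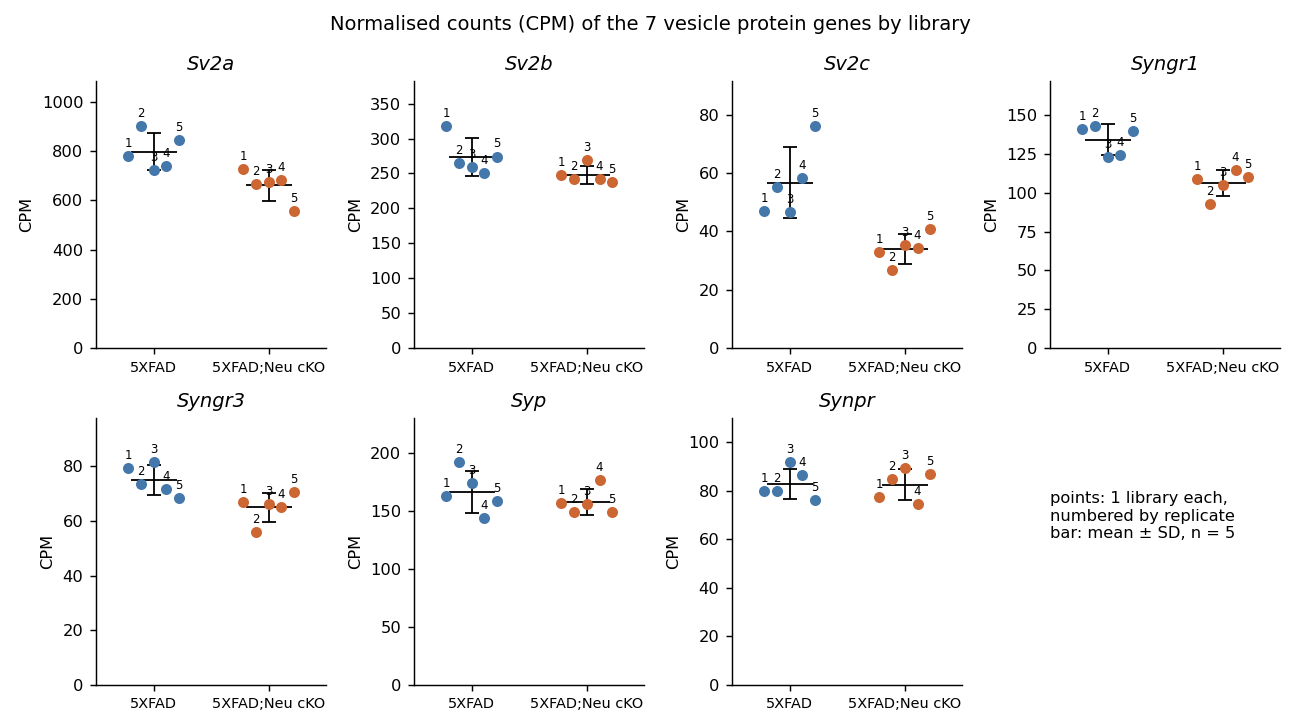
CPM of each of the 7 genes (vertical axis from 0, its own scale in each panel) in the 5 libraries labelled 5XFAD and the 5 labelled 5XFAD;Neu cKO; each point is 1 library numbered by replicate, and the bar is the mean ± SD. The groups do not overlap for Sv2c and Syngr1, and those of Syp and Synpr overlap.

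Sv2c was measured at 47.1, 55.4, 46.6, 58.3 and 76.3 CPM in replicates 1 to 5 of the libraries labelled 5XFAD. In the 5XFAD;Neu cKO-labelled libraries it was at 32.9, 26.9, 35.2, 34.2 and 40.8 CPM. All 5 cKO-labelled libraries lay below every 5XFAD library, and 5XFAD replicate 5, one of the libraries that stood apart, was the highest. The means were 34.0 ± 5.00 and 56.7 ± 12.1 CPM (SD, n = 5 each), a log2 fold change of -0.73 ± 0.14 (SE; edgeR, adjusted p = 0.00353; DESeq2, adjusted p = 0.00164). Without 5XFAD replicate 5 the log2 fold change was -0.60 and edgeR's adjusted p 0.0505, just above the threshold of 0.05. Without both 5XFAD replicates 2 and 5 it was -0.57, with an adjusted p of 0.142. The gene stayed past the threshold in edgeR when any of the other 9 libraries was left out. Sv2c rested on 146 to 343 counts per library, the fewest of the 7 genes.

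Sv2a, the most abundant member, was at 779, 904, 721, 742 and 846 CPM in the libraries labelled 5XFAD and at 729, 665, 674, 684 and 557 CPM in those labelled 5XFAD;Neu cKO. The groups touched: cKO-labelled replicate 1 lay above 5XFAD replicate 3, and the other 4 cKO-labelled libraries lay below every 5XFAD library. The means were 662 ± 63.7 and 798 ± 75.7 CPM, a log2 fold change of -0.27 ± 0.08 (SE). The adjusted p was 0.161 in edgeR and 0.0416 in DESeq2. Without 5XFAD replicates 2 and 5 the log2 fold change was -0.18 (edgeR, adjusted p = 0.720). An exon stretch of 880 bases is shared with Bola1 on the opposite strand, and no strand setting of the counting is given in the sources used here. Bola1 was counted 376 times in all against 41524 for Sv2a, and it did not reach the last 500 bases of the Sv2a exons, where these libraries read. The antisense genes that share exon bases with Sv2b, Sv2c, Syp and Synpr were each counted at most 42 times in all.

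Sv2b was at 319, 264, 259, 250.0 and 274 CPM in the libraries labelled 5XFAD, against 248, 242, 269.5, 241 and 238 CPM in those labelled 5XFAD;Neu cKO. The groups overlapped, and 5XFAD replicate 1 alone was above 300 CPM. The log2 fold change was -0.14 ± 0.08 (SE; edgeR, adjusted p = 0.739).

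The SV2 genes together summed to 944 ± 66.4 CPM in the 5XFAD;Neu cKO-labelled libraries and 1128 ± 87.3 CPM in those labelled 5XFAD, with ranges of 836 to 1009.7 and 1027 to 1224 CPM that did not overlap. Sv2a made up most of this sum in both groups, with 70.0% ± 2.27 and 70.7% ± 2.07. The share of Sv2b was 26.3% ± 1.64 in the cKO-labelled libraries and 24.3% ± 2.38 in the 5XFAD libraries. Sv2c supplied 3.63% ± 0.755 against 5.02% ± 0.927 of the sum, with ranges of 2.87% to 4.88% and 4.11% to 6.38% that overlapped. Most of the CPM by which the SV2 sum differed was therefore Sv2a, although Sv2c differed by the larger fold.

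**Figure D2:**
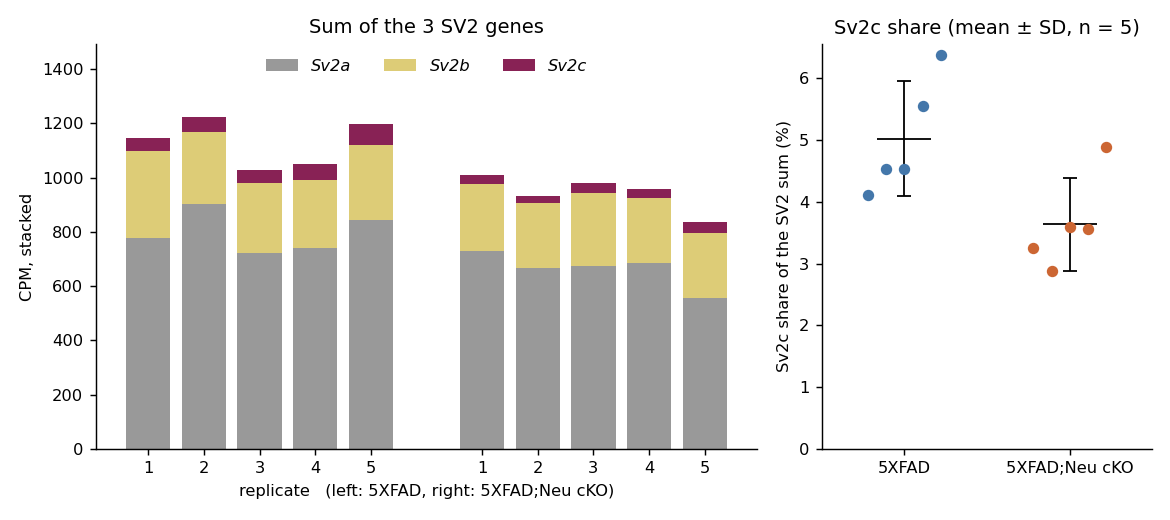
Left, stacked CPM of Sv2a, Sv2b and Sv2c in each library (vertical axis from 0), replicates 1 to 5 of each label; right, the share of Sv2c in that sum in percent, 1 point per library with mean ± SD (n = 5). The stacks of the 5XFAD;Neu cKO-labelled libraries end at 836 to 1009.7 CPM, below the 1027 to 1224 CPM of those labelled 5XFAD, and the Sv2c share is 3.63% against 5.02% with 1 cKO-labelled library within the 5XFAD range.

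Among the synaptogyrins, Syngr1 was at 141, 143, 123, 124 and 139.6 CPM in the libraries labelled 5XFAD and at 109, 92.9, 105, 115 and 110.3 CPM in those labelled 5XFAD;Neu cKO. Every cKO-labelled library lay below every 5XFAD library, with cKO-labelled replicate 4 and 5XFAD replicate 3 the closest. The means were 106 ± 8.32 and 134 ± 9.84 CPM, a log2 fold change of -0.34 ± 0.10 (SE). The adjusted p was 0.171 in edgeR and 0.0247 in DESeq2, so whether Syngr1 counts as changed depends on the tool. Leaving out 1 library at a time gave log2 fold changes from -0.37 to -0.29. Without 5XFAD replicates 2 and 5 it was -0.28 (edgeR, adjusted p = 0.584).

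Syngr3, which binds the dopamine transporter and is otherwise a vesicle protein of many neurons, was at 79.5, 73.7, 81.5, 71.8 and 68.5 CPM in the libraries labelled 5XFAD, against 67.1, 56.1, 66.2, 65.3 and 70.5 CPM in those labelled 5XFAD;Neu cKO. The ranges overlapped through replicate 5 of each label only. The log2 fold change was -0.21 ± 0.11 (SE; edgeR, adjusted p = 0.689). The synaptogyrin sum was 171 ± 13.1 CPM against 209 ± 9.87 CPM, with Syngr1 supplying 62.1% and 64.1% of it.

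Syp was at 162, 192, 174, 144 and 158 CPM in the libraries labelled 5XFAD and 157, 149, 155, 176 and 149 CPM in those labelled 5XFAD;Neu cKO. The groups overlapped throughout, and the lowest value of all was a 5XFAD library. The log2 fold change was -0.079 ± 0.09 (SE; edgeR, adjusted p = 0.926). Synpr was at 79.8, 79.8, 91.8, 86.5 and 76.3 CPM against 77.6, 84.8, 89.3, 74.5 and 86.9 CPM, and its log2 fold change of -0.0050 (SE 0.11, edgeR adjusted p = 0.998) changed sign when any of 4 single libraries was left out. These p-values do not show that Syp and Synpr were equal in the 2 labels, but their estimates were the smallest of the family. Without 5XFAD replicates 2 and 5 the log2 fold changes were -0.15 for Sv2b, -0.26 for Syngr3, -0.029 for Syp and -0.061 for Synpr. The pair of Syp and Synpr summed to 240 ± 7.49 and 249 ± 18.5 CPM.

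**Figure D3:**
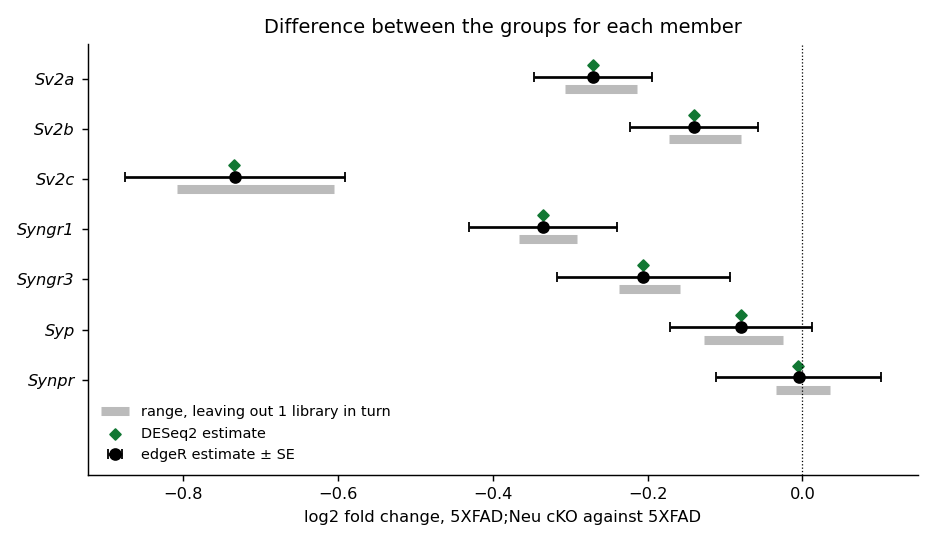
Log2 fold change of each member, 5XFAD;Neu cKO-labelled libraries against 5XFAD (horizontal axis): the black point is the edgeR estimate with its standard error, the green diamond the DESeq2 estimate and the grey bar the range when 1 library is left out in turn. Sv2c lies at -0.73 with a range of -0.81 to -0.60, the other 6 genes between -0.34 and -0.0050, and only the bar of Synpr crosses 0.

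The members were ordered by their mean level over the 10 libraries, and levels were not used to choose the family. The difference between the labels, on which the family was picked, does enter these means. Since each transcript gives about 1 counted fragment whatever its length, CPM was compared between genes without division by length, and differences in how well each poly(A) end is primed or mapped enter these levels. Sv2a was highest with 730.1 ± 97.6 CPM (SD, n = 10) and ranked 78 among the 19268 genes. Sv2b followed with 261 ± 23.9 CPM, then Syp with 162 ± 14.8, Syngr1 with 120.3 ± 17.1, Synpr with 82.7 ± 5.90, Syngr3 with 70.0 ± 7.30 and Sv2c with 45.4 ± 14.8 CPM. The order came from the means of these same 10 libraries, so the pairs were not fixed before the test. Each of the 6 neighbouring pairs in this order differed beyond the spread between libraries in log2 CPM. The higher gene was higher in 10 of 10 libraries for 5 pairs (exact sign-flip permutation test, p = 0.00195, the smallest it can give, adjusted p = 0.00234 over 6 pairs). For Syngr3 above Sv2c it was 9 of 10 libraries (exact sign-flip permutation test, p = 0.00391, adjusted p = 0.00391). The exception was 5XFAD replicate 5, with 68.5 CPM of Syngr3 and 76.3 CPM of Sv2c, where Synpr was also at 76.3 CPM. The lower Sv2c of the cKO-labelled libraries enters the test of Syngr3 above Sv2c. Means of Syngr3 and Sv2c were 75.0 and 56.7 CPM in the libraries labelled 5XFAD, and 65.0 and 34.0 CPM in those labelled 5XFAD;Neu cKO. This pair was not tested within a label, so its p-value is no evidence apart from the contrast. The step between Synpr and Syngr3 was the smallest, 0.24 ± 0.17 on the log2 scale, and that between Sv2a and Sv2b the largest, 1.48 ± 0.17.

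**Figure D4:**
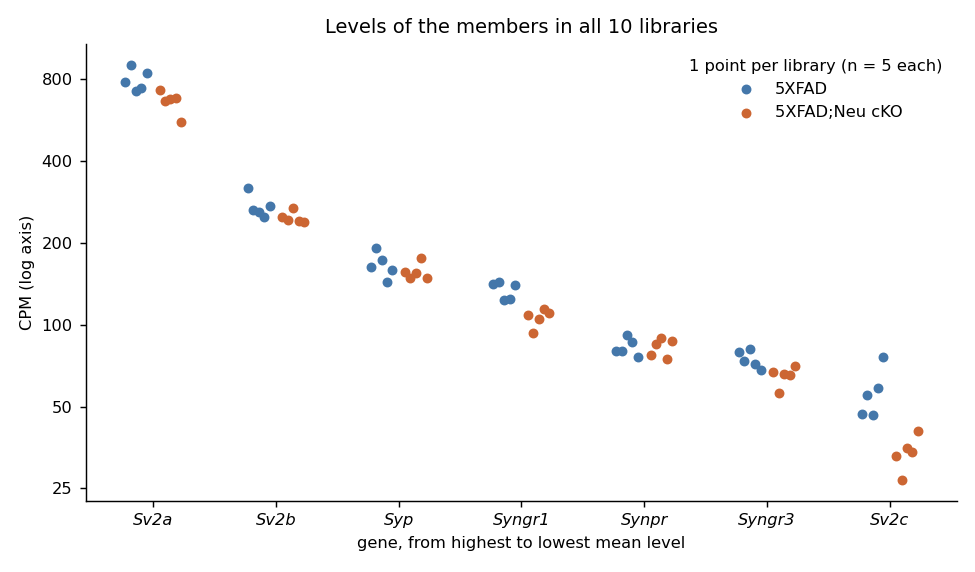
CPM of the 7 members on a log axis, ordered from the highest to the lowest mean level, 1 point per library with the labels 5XFAD and 5XFAD;Neu cKO in separate colours (n = 5 each). The genes step down from 730.1 CPM for Sv2a to 45.4 CPM for Sv2c, and the Sv2c points of the 2 labels do not overlap.

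Within a label, Sv2c, which also had the fewest counts, varied most from library to library. Its coefficient of variation was 21.3% in the libraries labelled 5XFAD and 14.7% in those labelled 5XFAD;Neu cKO. The other 6 members varied by 7.22% to 10.8% and by 5.10% to 9.62%. The members did not move as a block once the mean of each label was subtracted from log2 CPM. Over the 10 libraries Pearson's r was 0.49 between Syngr1 and Syp, 0.49 between Sv2a and Syp and 0.48 between Sv2c and Syngr1. It was -0.68 between Syngr1 and Synpr, -0.66 between Sv2a and Synpr, and 0.0068 between Sv2a and Sv2c. These values describe 10 libraries in which all genes share depth and scaling, and no test was made of them.

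The genes whose residual pattern was most like that of each member were sought among 8841 genes with a mean of at least 10 CPM, and up to 3 are named for each. For Sv2c they included Efna5, an ephrin (r = 0.86), and Adarb1, an RNA editing enzyme (r = 0.86). Those closest to Sv2a were Rad21, a cohesin subunit (r = 0.98), the small nucleolar RNA Snora73b (r = 0.96) and the lipoprotein receptor Vldlr (r = 0.94). For Sv2b they were Hsd17b7 (r = 0.96), Acvr1b (r = 0.92) and Gfra1 (r = 0.91). For Syngr1 they were Twf1 (r = 0.93), Vps13c (r = 0.92) and Spast (r = 0.92), and for Syngr3 Mdh1 (r = 0.97), Galnt13 (r = 0.95) and Nsmce1 (r = 0.95). Syp was closest to Rfc1 (r = 0.96), Nat8l (r = 0.94) and Gnl2 (r = 0.93), and Synpr to Thumpd1 (r = 0.91), Cd200 (r = 0.91) and Zfyve16 (r = 0.90). Each is among the highest of 8841 values over 10 libraries, and none of the genes named here was past the threshold in edgeR.

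The relatives of these families were also measured. Of 6 relatives, Svopl and Syngr4 had a count of 0 in every library and 4 were tested. Svop, a transporter-like vesicle protein related to SV2, was at 76.8 ± 11.1 CPM in the 5XFAD;Neu cKO-labelled libraries and 90.4 ± 4.27 CPM in those labelled 5XFAD (log2 fold change -0.24, edgeR adjusted p = 0.564). Sypl1 had a log2 fold change of -0.080 (SE 0.15) and Syngr2, a synaptogyrin found outside neurons, -0.14 (SE 0.40). That of Sypl2, with 3 to 22 counts per library, was 0.11 (SE 0.62). None of the 4 was past the threshold in edgeR, where 1 (Svop) had an unadjusted p under 0.05, nor were Svop and Sypl1 in DESeq2, which gave the other two no adjusted p. The estimate was below 0 for 3 of the 4.

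Other vesicle genes were listed by role. Of 29 genes of the vesicle membrane and its cargo, 20 had an estimate below 0 with a median of -0.064, and 1 was past the threshold in edgeR: Syt2, the calcium sensor of fast release at terminals of fast-spiking cells, fell from 57.2 ± 10.1 to 37.5 ± 8.23 CPM (log2 fold change -0.61, edgeR adjusted p = 0.0388). It stayed past the threshold in 5 of the 10 edgeR fits that left out 1 library, and was lost without 5XFAD replicate 2 or 5 and without 5XFAD;Neu cKO replicate 2, 3 or 5, with an adjusted p of up to 0.246. DESeq2 called 3 genes of this list lower, Syt1, Syt2 and Syt5, and none higher. Slc17a6, the vesicular glutamate transporter of subcortical neurons, had the next lowest estimate, -0.39 (edgeR adjusted p = 0.369). Slc18a2 and Rab3b had the highest, 0.52 and 0.22, with edgeR adjusted p = 0.973 and 0.898. Slc18a2 rested on only 0 to 14 counts per library, and its estimate had an SE of 1.15. Of 21 genes of docking and release, 14 had an estimate below 0 (median -0.023). Cplx3 (-0.45, SE 0.35, 22 to 105 counts per library) and Unc13c (-0.30) were the lowest and Snap25 (0.25) and Unc13b (0.17) the highest of the 21 genes. None of the 21 was past the threshold in edgeR, where 4 had an unadjusted p under 0.05, and Pclo, an active zone scaffold, was in DESeq2 (adjusted p = 0.0139). Of 19 recycling genes, 9 had an estimate below 0 (median 0.0016), from -0.32 for Ston2 and -0.21 for Ap2s1 to 0.26 for Sh3gl1 and 0.32 for Ap2a1, and neither tool called any, with 1 unadjusted p under 0.05 in edgeR. Over all genes, 1532 had an unadjusted p under 0.05 in edgeR.

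**Figure D5:**
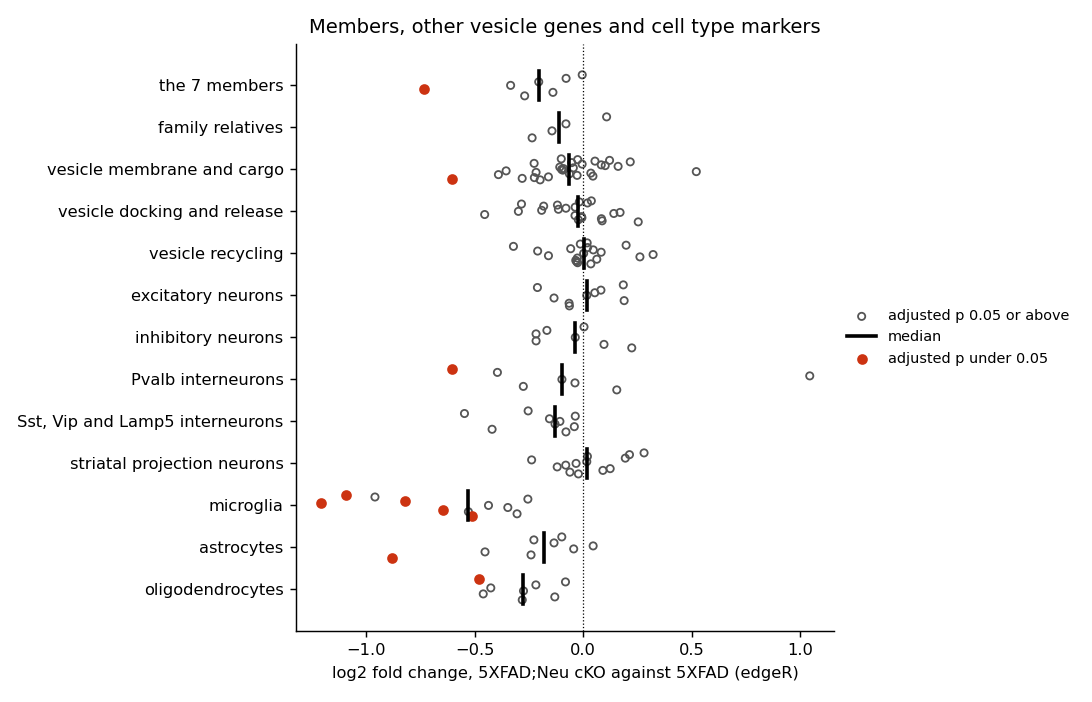
Log2 fold change (edgeR, 5XFAD;Neu cKO-labelled libraries against 5XFAD, horizontal axis) of each gene of the members, of the other vesicle lists and of cell type marker lists; open circles have an adjusted p of 0.05 or above, red points under 0.05, and the bar is the list's median. The median is -0.21 for the 7 members, -0.064 for vesicle membrane and cargo genes, 0.016 for markers of excitatory neurons and -0.53 for microglial markers.

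Markers of the cells that could carry these transcripts were read beside them. In bulk tissue, fewer cells of a type and less RNA per cell cannot be told apart. The 9 markers of excitatory neurons, the main cells of cortex, summed to 2294 to 2663 CPM in the 5XFAD;Neu cKO-labelled libraries and 2306 to 2784 CPM in those labelled 5XFAD, with 4 of 9 estimates below 0, none past the threshold in edgeR or DESeq2 and 0 with an unadjusted p under 0.05. Camk2a made up most of this sum, with means of 1781 of 2472 CPM and 1864 of 2537 CPM in the same order. Markers of striatal projection neurons, cells rich in SV2C, were counted in every library, and some of them are also expressed in cortex. The 13 striatal markers summed to 1367 to 1886 and 1392 to 1800 CPM, with a median log2 fold change of 0.016 and none past the threshold in either tool, 1 having an unadjusted p under 0.05 in edgeR. Markers of Sst, Vip and Lamp5 interneurons had estimates below 0 for 9 of 9 genes (median -0.13), general inhibitory markers for 4 of 7, and those of Pvalb interneurons for 5 of 7, Syt2 being the 1 gene past the threshold. Thalamic markers had 5 of 9 and hippocampal markers 3 of 7 estimates below 0, endothelial markers 3 of 6 and choroid plexus markers 2 of 5. Apart from Syt2, no gene of these lists was past the threshold in edgeR or DESeq2. An unadjusted p under 0.05 in edgeR was found for 1 Sst, Vip and Lamp5 gene and 1 general inhibitory gene. It was also found for 3 Pvalb genes and 1 thalamic gene, and for no hippocampal, endothelial or choroid plexus gene. The general inhibitory gene and 1 of the Pvalb genes had estimates above 0, as had the striatal gene, and the others were below 0.

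Glial markers differed between the labels in the same direction as Sv2c. All 11 microglial markers had estimates below 0 (median -0.53), and 5 fell by edgeR's test: Cx3cr1, Csf1r, C1qb, C1qc and Tyrobp. C1qb and Tyrobp stayed past the threshold in 10 of 10 fits that left out 1 library, Csf1r in 9, C1qc in 8 and Cx3cr1 in 6. The 11 markers summed to 267 to 322 CPM in the 5XFAD;Neu cKO-labelled libraries and 358 to 535 CPM in those labelled 5XFAD. Gfap, the filament protein of astrocytes, and Mal, a myelin protein, were also past the threshold and lower (log2 fold changes -0.88 and -0.48; Gfap stayed past it in 10 and Mal in 2 of the 10 fits that left out 1 library), and 7 of 8 astrocyte and 8 of 8 oligodendrocyte estimates were below 0. The astrocyte sum was 3560 to 4140.2 CPM against 3708 to 4362 CPM and the oligodendrocyte sum 1834 to 2895 CPM against 2084 to 3031 CPM, so both overlapped between the labels. Slc1a2 made up most of the astrocyte sum, with means of 2916 of 3839 CPM and 3007 of 4008 CPM in the same order. Within the labels, with the label means subtracted from log2 CPM, Pearson's r with Sv2c over the 10 libraries ran from -0.55 (Tyrobp) to 0.21 (C1qa) for the microglial markers and was -0.20 for Gfap and 0.096 for Mal, given as a description. The part of these shifts in the values of the vesicle genes was not tested.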

How the data were processed

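RNA from the cerebral cortex of 10 female mice was measured, 5 libraries for each label. The authors trimmed QuantSeq FWD single reads, aligned them with STAR 2.7.3a to GRCm39 (Ensembl annotation) and made per-gene counts with HTSeq (version 0.9.1 in the submitters' processing notes). The deposited values are raw counts, whole numbers with no normalization; summary rows of unassigned reads (31.3% to 39.9% on no gene) were left out. Groups followed the sample labels.

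Differences were tested with edgeR 4.0.16 in R 4.3.3 (quasi-likelihood test, TMM, label as the only term) over the 19268 genes with a total above 10, with Benjamini-Hochberg adjustment and a threshold of 0.05. DESeq2 1.42.0 was an alternative. Standard errors are those implied by edgeR's F statistic. Log2 CPM used a prior count of 2. Both fits were tested on simulated data. Libraries of a label differed by more than sampling noise in all 20 pairs (chi-square per degree of freedom at least 5.86). Whether replicates share litters or days is not given, so p-values measure the spread between these libraries. Precision follows the counts of each gene.

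The members and gene lists were chosen with earlier results of these data known. Named genes are the members, Mylip, the relatives, list genes past the threshold with the 2 lowest and 2 highest estimates of each vesicle list, the 3 genes most like each member, and markers past the threshold. Pclo, Syt1, Syt5, Bola1, Camk2a and Slc1a2 were named after their values were seen. A gene that the rule covers is not reported here. Sequences came from the RefSeq promoter table (GRCm38.p6), gene positions from GENCODE (GRCm39).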

Additional observations from a re-analysis of the deposited data

How the results depend on the processing

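Sv2c kept its direction and its place past the threshold under DESeq2, DESeq2's size factors, 2 other filters on low counts, a robust fit, removal of mitochondrial genes and the replicate block, with log2 fold changes of -0.74 to -0.73. Of 42 genes past the threshold in edgeR, the count became 73 with DESeq2, 103 with no filter on low counts and 26 to 72 when 1 library was left out (26 without 5XFAD replicate 2, 72 without 5XFAD;Neu cKO replicate 1, and 27 without 5XFAD;Neu cKO replicate 4 or 5). The count of members past it, 1, became 3 with DESeq2 and 0 to 1 when 1 library was left out, being 0 without 5XFAD replicate 5. Leaving out 5XFAD replicates 2 and 5 together, an alternative chosen after seeing the data, gave 27 genes and 0 members. The estimate of Synpr ran from -0.035 to 0.035 when 1 library was left out, and was above 0 without 5XFAD replicate 3 (0.035), 5XFAD replicate 4 (0.011), 5XFAD;Neu cKO replicate 1 (0.017) or 5XFAD;Neu cKO replicate 4 (0.030). The cause of these shifts was not tested. With the replicate number as a block, 112 genes and 2 members (Sv2c and Sv2a) were past the threshold. Same-numbered libraries did not deviate together (r from -0.08 to 0.05), and in no same-numbered pair were both libraries each other's closest. The numbers were therefore not taken as pairs. The order of the members by mean level was the same under another prior count, without TMM factors and with any 1 library left out. Of the 10 genes most like Sv2c, 1 remained when the label means were not subtracted. Depth of 4320504 to 7466192 reads and 5 libraries per label limit what could be seen for Syngr3, Sv2b and Syp, whose estimates were 2 standard errors or less from 0.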
